A study of Mus musculus with 5 samples.

Results

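The genes described here are 52 genes of the G2 phase and mitosis, chosen by symbol from the 27998 genes of the count matrices. All 52 were found, all are annotated as protein-coding, and each had at least 1 counted molecule in every library. They were read in 4 sorted populations of bone marrow progenitors from healthy, wild-type C57BL/6 mice, both as library sums and cell by cell, with the droplet-based 3' assay of 10x Genomics, which counts molecules by unique molecular identifiers (UMIs). All populations were sorted as lineage-negative and KIT-positive. The megakaryocyte/erythroid progenitors (MEP) were SCA1-, CD34- and CD16/32-, the granulocyte/monocyte progenitors (GMP) were SCA1-, CD34+ and CD16/32+, the common myeloid progenitors (CMP) were SCA1-, CD34+ and CD16/32-, and the LSK cells, the compartment that holds the blood stem cells, were SCA1+. The labels give neither the age of the mice nor how many were pooled. The 2 CMP samples held the same matrix, so each population was 1 library, there is no replicate check on any difference, and no test was made. Intervals are exact 95% intervals that cover counting error only.

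The genes of G2 and mitosis carry a dividing cell from replicated DNA to separated daughters. Cyclin B with the kinase CDK1 starts mitosis, aurora and BUB kinases attach and check chromosomes at the kinetochore, kinesins and spindle proteins build the spindle, and the anaphase-promoting complex ends mitosis by having cyclins degraded. In mammalian cells many of these genes are repressed early in the cycle and switched on together late in it by the DREAM and MuvB complexes with B-MYB and FOXM1, through a promoter element called CHR, and by NF-Y through CCAAT boxes. In bone marrow, blood stem cells divide rarely, whereas erythroid and myeloid progenitors divide often.

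The promoters are shown because the transcripts of these genes gathered in the same cells. RefSeq promoter windows of GRCm38.p6, from 250 bases before to 50 bases after the gene's start, were found for 46 of the 52 genes (Cdc25c, Aurkb, Tpx2, Dlgap5, Smc4 and Cdca2 had none in the table used). The letters TTTGAA or TTCGAA, read as a CHR on either strand, were in 36 of 46 windows or 78.3%, against 21.7% of the 27025 genes with a window. Of 30 S phase genes 20% had the letters, and of 46 other mitosis genes 60.9%. CCAAT, on either strand, was in 35 of 46 windows or 76.1%, against 70% of the S phase genes and 41.1% of all genes. Both motifs stood in the same window for 63.0% of the 46 genes and for 8.61% of all genes. Neither motif overlaps the other in its letters, and a gene with several windows was counted where any of them held the motif. A match is a description and neither a bound site nor a cause. The 120 bases before the start are printed 5′ to 3′ on the gene's strand, with CHR and CCAAT matches in capitals (TTCAAA and ATTGG are the same motifs on the other strand). Ube2c, Ckap2l and Hmmr are among the 8 genes with a match whose transcripts were most concentrated in the same cells, and Cdk1, Cdc20 and Ccnb2 were added as central regulators after their matches had been seen. The rest of those 8 are not printed. In their 120 bases Cenpf, Aurka, Psrc1 and Nek2 had CCAAT but no CHR match. Kif2c had a CHR match at 103 bases and no CCAAT. Nusap1, also highly concentrated, had neither motif in its window, so the printed layouts are not typical of the most concentrated genes.
Ube2c: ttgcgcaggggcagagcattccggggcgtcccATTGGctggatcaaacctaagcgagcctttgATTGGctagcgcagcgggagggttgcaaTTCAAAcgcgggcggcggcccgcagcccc
Ckap2l: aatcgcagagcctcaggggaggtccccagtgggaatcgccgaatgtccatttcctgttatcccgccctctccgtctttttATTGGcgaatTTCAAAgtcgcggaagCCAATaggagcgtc
Hmmr: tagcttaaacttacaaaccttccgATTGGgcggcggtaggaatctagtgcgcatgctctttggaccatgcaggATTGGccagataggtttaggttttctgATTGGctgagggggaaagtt
Cdk1: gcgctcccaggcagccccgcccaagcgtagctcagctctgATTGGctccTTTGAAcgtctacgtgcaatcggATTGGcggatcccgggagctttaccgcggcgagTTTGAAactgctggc
Cdc20: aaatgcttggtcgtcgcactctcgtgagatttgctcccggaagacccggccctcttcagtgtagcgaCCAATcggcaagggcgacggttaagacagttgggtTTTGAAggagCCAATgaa
Ccnb2: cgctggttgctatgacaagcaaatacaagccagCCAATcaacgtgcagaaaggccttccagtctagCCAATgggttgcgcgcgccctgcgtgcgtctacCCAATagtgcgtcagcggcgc
These windows lie at chr2:164769809-164769928 on the plus strand for Ube2c and, on the minus strand, at chr2:129297213-129297332 for Ckap2l, chr11:40733438-40733557 for Hmmr, chr10:69352913-69353032 for Cdk1, chr4:118437344-118437463 for Cdc20 and chr9:70421555-70421674 for Ccnb2. The CHR match begins 29 bases before the gene's start in Ube2c, 30 in Ckap2l and 18 in Cdc20, while Cdk1 has 2, at 71 and 15 bases. In Hmmr and Ccnb2 the printed bases hold 3 CCAAT boxes each, and a CHR match lies elsewhere in the longer window.

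The libraries held 6284 MEP, 8027 GMP, 3713 CMP and 10870 LSK cells, and 80273121 UMIs in MEP, 73362645 in GMP, 26919088 in CMP and 75167959 in LSK. The median cell had 12578 UMIs in MEP, 9100 in GMP, 6904 in CMP and 5991.5 in LSK. The CMP matrix used here held 3738 barcodes, while the design text states 12185 CMP cells; the other cells were not analysed here. The erythroid, granule and stem marker lists were each highest in the library of the matching gate, and the megakaryocyte list was not. The 5 erythroid markers summed to 5534 counts-per-million (CPM) of the UMIs in MEP and between 2.67 and 91.0 in the other libraries. The 4 granule markers summed to 12.4 CPM in MEP, 27386 in GMP, 5951.5 in CMP and 699.6 in LSK. The 6 stem markers summed to 695 CPM in LSK and between 16.4 and 86.9 in the other libraries. The 5 megakaryocyte markers summed to 96.5 CPM in MEP, 11.995 in GMP, 405 in CMP and 146 in LSK. Pairs of libraries shared 36 to 130 cell barcodes, where independent draws from all possible barcodes would share 31.6 to 118.

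Summed over the 52 genes, transcripts of G2 and mitosis were most abundant in MEP and least abundant in LSK. They made up 0.898% of all UMIs in MEP, 0.753% in GMP, 0.692% in CMP and 0.540% in LSK, and summed to 8980 CPM in MEP, 7535 in GMP, 6920 in CMP and 5399 in LSK. The summed level in MEP was 1.66-fold that in LSK (1.66 to 1.67) and 1.19-fold that in GMP (1.19 to 1.20). A sum over a library does not separate more cells with a transcript from more transcripts per cell; the single-cell values further on do. For comparison, 42 S phase genes, which copy DNA earlier in the cycle, summed to 4182 CPM in MEP, 3778 in GMP, 3948 in CMP and 3327 in LSK, so their MEP level was 1.26-fold that in LSK (1.25 to 1.26). The ratio of the G2 and mitosis sum to the S phase sum was 2.15 in MEP, 1.99 in GMP, 1.75 in CMP and 1.62 in LSK.

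**Figure D1:**
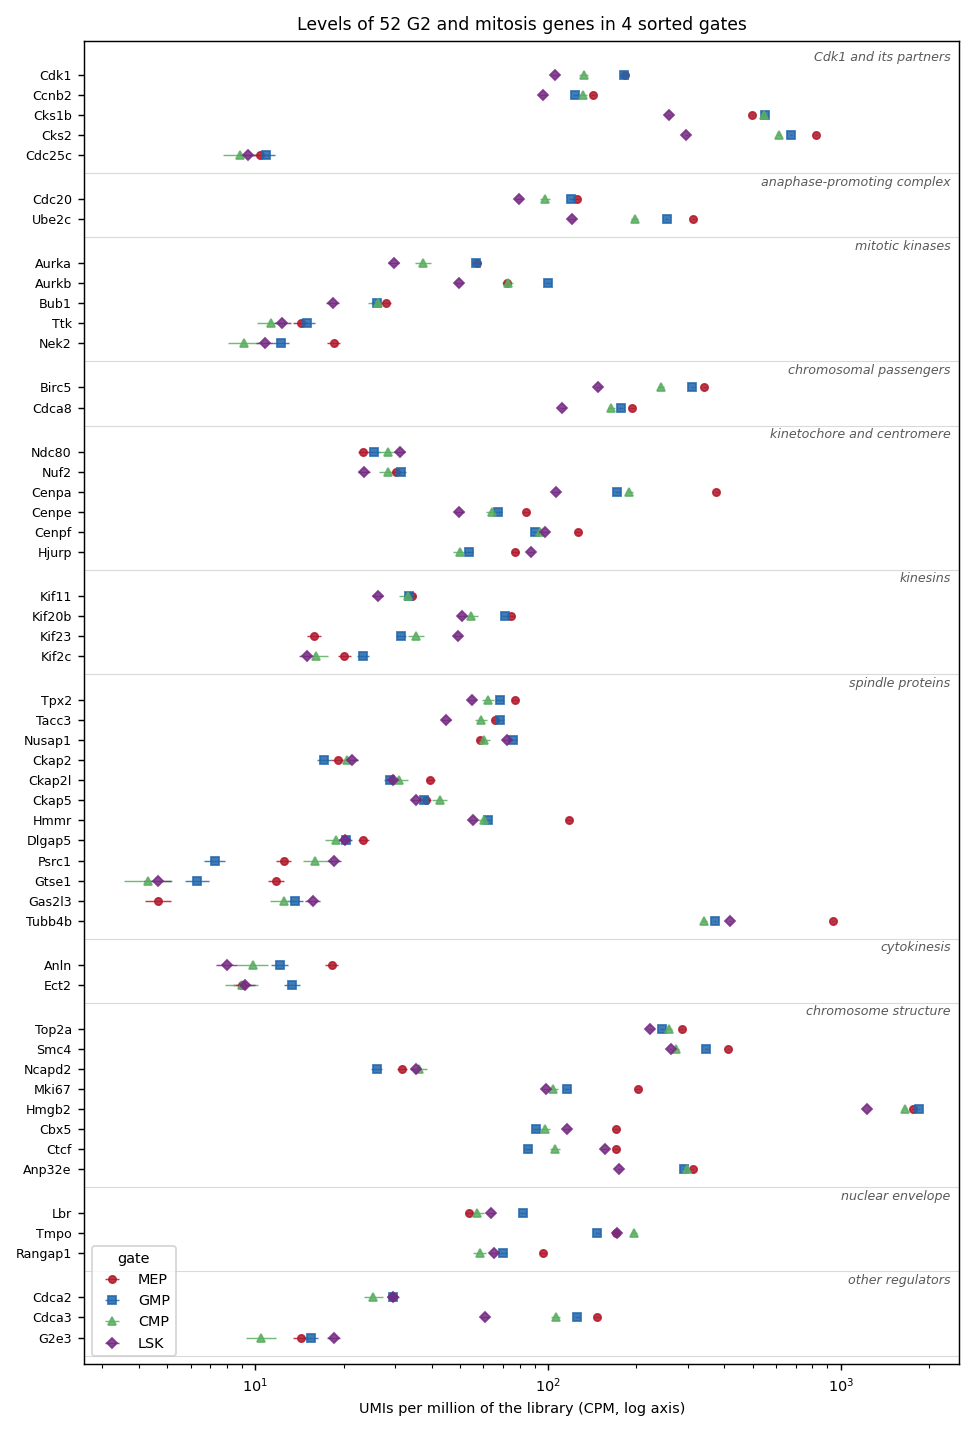
Level of each of the 52 genes in the MEP, GMP, CMP and LSK libraries, in CPM on a log axis, with the genes grouped by role; points are single libraries and bars, where wider than the point, are exact 95% counting intervals. MEP had the highest level for 30 genes and LSK the lowest for 28, while 13 genes were lower in MEP than in LSK, Kif23, Gas2l3 and Psrc1 the furthest.

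Gene by gene, 39 of 52 had a higher CPM in MEP than in LSK, and 50 of 52 were seen in a larger share of MEP cells as sequenced, where MEP cells were the deeper ones. At 3000 UMIs per cell this held for 45 of 52, and Ndc80, Hjurp, Kif23, Psrc1, Gas2l3, Lbr and G2e3 were seen in a larger share of LSK cells. MEP was the highest library for 30 genes, GMP for 11, CMP for 3 and LSK for 8, and LSK was the lowest library for 28. The full order MEP, GMP, CMP, LSK from high to low held for 16 genes, among them Cdk1, Cdc20, Ube2c, Birc5, Aurka and Mki67. Of the 156 pairs of libraries next to each other in a gene's order, 51 had overlapping intervals, and for 18 genes no pair of neighbours overlapped. These orders rest on scaling by total UMIs. Under median-of-ratios or TMM factors (trimmed mean of M-values), LSK was lowest for 46 of the 52 genes in each case, and only Kif23, Gas2l3 and Psrc1 stayed lower in MEP than in LSK. These factors move the log2 ratios over LSK by 0.31 to 0.54 upward for every gene, the ratios over CMP by 0.12 to 0.16, and MEP over GMP by -0.02 and -0.01.

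A gene was counted as higher or lower where 2 libraries differed 2-fold or more and the larger of both levels was at least 10 CPM. In MEP over LSK 10 of the 51 genes past this minimum (19.6%) were higher and 2 (3.92%) lower, where 9.16% of all genes were higher and 24.9% lower. The genes that were higher were Cks2, Ube2c, Birc5, Cenpa, Hmmr, Gtse1, Tubb4b, Anln, Mki67 and Cdca3, and those that were lower were Kif23 and Gas2l3. With median-of-ratios factors these counts were 28 higher and 2 lower, where 24.9% of all genes were higher and 15.6% lower. In GMP over LSK 6 of 51 were higher and 1 lower, where 5.13% of all genes were higher and 21% lower, and with median-of-ratios factors 19 were higher and 0 lower, where 16.2% of all genes were higher and 9.95% lower. In CMP over LSK 2 of 48 were higher, Cks1b and Cks2, and 0 lower, where 2.05% of all genes were higher and 12.3% lower. Median-of-ratios factors gave 7 higher and 0 lower, where 5.87% of all genes were higher and 5.35% lower. The 3 comparisons share the LSK library, so their values are not independent of each other.

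Between the 3 SCA1-negative libraries fewer of the genes passed 2-fold than in MEP over LSK and GMP over LSK. In MEP over GMP and MEP over CMP, however, more passed than in CMP over LSK when scaled by total UMIs. In MEP over GMP 2 of 52 were higher, Cenpa and Tubb4b, and 1 lower, Gas2l3, where 12.8% of all genes were higher and 13.8% lower, and with median-of-ratios factors 2 were higher and 2 lower, where 12.3% of all genes were higher and 14.1% lower. In MEP over CMP 3 of 51 were higher, Nek2, Gtse1 and Tubb4b, and 2 lower, Kif23 and Gas2l3, where 10.9% of all genes were higher and 14.6% lower. Median-of-ratios factors gave 7 higher and 2 lower there, where 14.1% of all genes were higher and 13% lower. In GMP over CMP 0 of 51 were higher and 1 lower, Psrc1, where 2.99% of all genes were higher and 5.32% lower, and with median-of-ratios factors 0 were higher and 0 lower, where 3.97% of all genes were higher and 4.17% lower. Scaled by total UMIs, the shares of the 52 genes were below those of all genes in MEP over GMP and MEP over CMP, in both directions.

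The median log2 ratio of the 52 genes was 0.53 in MEP over LSK, where the median of all genes with a mean of 1 CPM or more was -0.36. It was 0.33 against -0.44 in GMP over LSK and 0.11 against -0.33 in CMP over LSK. Between the other libraries it was 0.14 against 0.12 in MEP over GMP, 0.32 against 0.01 in MEP over CMP and 0.14 against -0.08 in GMP over CMP. The S phase genes had medians of 0.28 in MEP over LSK, 0.12 in GMP over LSK and 0.20 in CMP over LSK. The medians of 64 other mitosis genes were 0.38 in MEP over LSK, 0.21 in GMP over LSK and 0.07 in CMP over LSK.

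**Figure D2:**
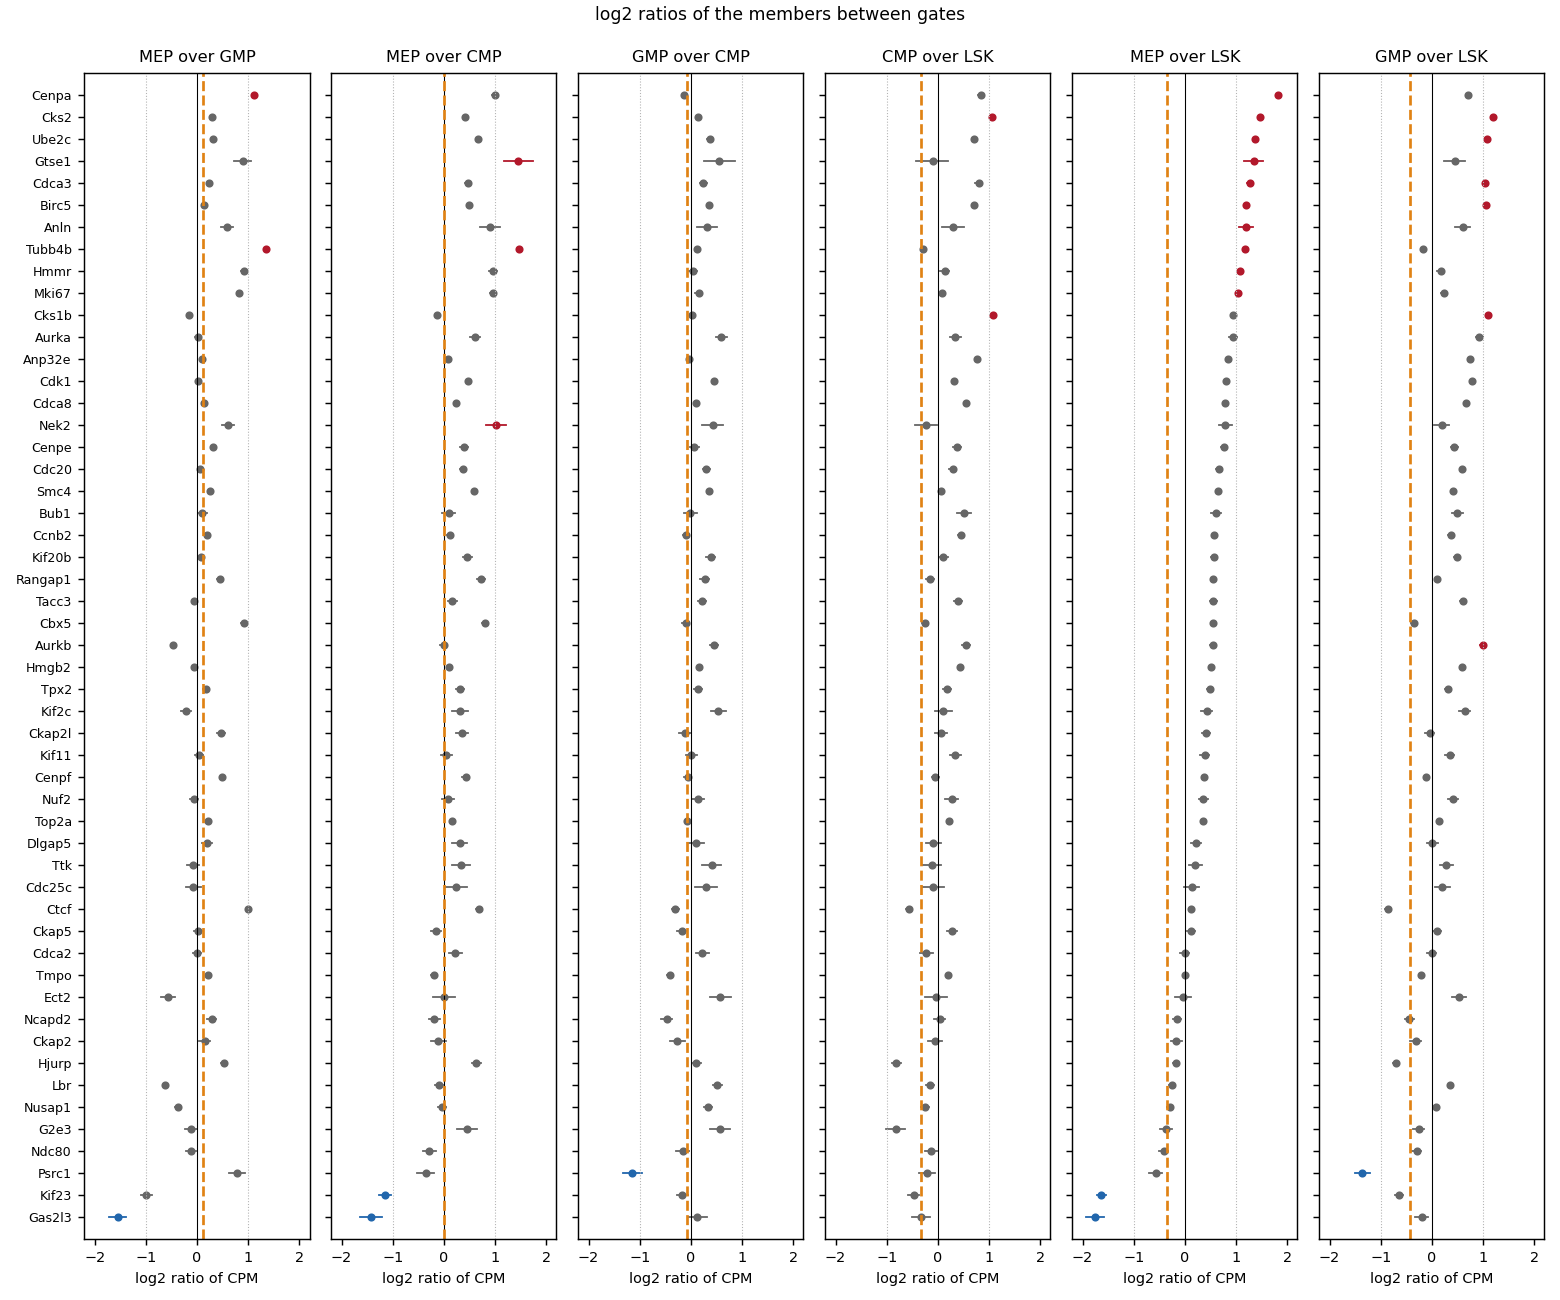
Log2 ratio of each of the 52 genes in the 6 pairs of libraries, with exact 95% counting intervals; the dashed line is the median of all genes in that pair, dotted lines mark 2-fold, and coloured points passed the 2-fold rule. In the 3 panels over LSK most genes lie above the median of all genes, and in MEP over LSK 39 of 52 lie above 0.

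Of the cyclin-dependent kinase and its partners, Cdk1 (chr10:69335146-69352938, minus strand), the kinase that starts mitosis, had 184 CPM in MEP (181 to 187), 181 in GMP (178 to 184), 132 in CMP (128 to 137) and 106 in LSK (103 to 108). MEP and GMP overlapped and both lay above CMP and LSK. Ccnb2, a B-type cyclin that activates it, had 142 CPM in MEP, 124 in GMP, 132 in CMP and 96.0 in LSK. In both small CDK-binding subunits LSK stood apart from the other 3 libraries. Cks2 (chr13:51645232-51650660, plus strand) had 824 CPM in MEP (817 to 830.0), 676 in GMP (669.6 to 682), 615 in CMP (606 to 625) and 297 in LSK (293 to 301), and its log2 ratio over LSK was 1.47 in MEP, 1.19 in GMP and 1.05 in CMP. Cks1b (chr3:89415472-89418383, minus strand) was nearly level in the 3 SCA1-negative libraries, at 497 CPM in MEP, 551 in GMP and 547 in CMP, against 258 in LSK. Its reads can be shared with a close copy in the genome. Cdc25c, a phosphatase that activates CDK1, had 10.4 CPM in MEP, 10.9 in GMP, 8.84 in CMP and 9.46 in LSK, and every pair of neighbours in its order overlapped.

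Both members of the anaphase-promoting machinery followed the order MEP, GMP, CMP, LSK. Ube2c (chr2:164769898-164778822, plus strand), the ubiquitin-conjugating enzyme of the anaphase-promoting complex, had 314 CPM in MEP (309.7 to 317), 254 in GMP (250.1 to 257), 197 in CMP (192 to 203) and 121 in LSK (118 to 123). No intervals overlapped, and the log2 ratio of MEP over LSK was 1.38 (1.34 to 1.41). Cdc20, the activator that brings substrates to the complex, had 125 CPM in MEP, 120.1 in GMP, 97.3 in CMP and 79.5 in LSK, with MEP over LSK at 0.66 (0.61 to 0.71).

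Among the 5 mitotic kinases the order of MEP and GMP differed by gene. Aurka, the aurora kinase of the spindle poles, had 57.1 CPM in MEP and 56.5 in GMP, which overlapped, against 37.4 in CMP and 29.7 in LSK. Aurkb, the aurora kinase of the centromere, was highest in GMP, with 72.3 CPM in MEP, 99.6 in GMP, 72.7 in CMP and 49.5 in LSK. Nek2, a centrosomal kinase, had 18.5 CPM in MEP, 12.2 in GMP, 9.14 in CMP and 10.7 in LSK and was 1.02 log2 units higher in MEP than in CMP (0.83 to 1.22). Bub1 and Ttk, kinases of the spindle checkpoint, ranged from 18.3 to 27.9 and from 11.3 to 15.0 CPM over the 4 libraries, with Bub1 lowest in LSK and Ttk lowest in CMP, though Ttk was lower in LSK than in CMP with the other scalings. The chromosomal passengers Birc5 (survivin) and Cdca8 (borealin), which place aurora B on chromosomes, both followed the full order. Birc5 had 341 CPM in MEP, 311 in GMP, 243 in CMP and 148 in LSK, a log2 ratio of 1.20 for MEP over LSK (1.17 to 1.23). Cdca8 had 194 CPM in MEP, 177 in GMP, 164 in CMP and 112 in LSK.

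The 6 kinetochore and centromere genes split. Cenpa (chr5:30666777-30674830, plus strand), the histone H3 variant that marks centromeres, had 376 CPM in MEP (371 to 379.8), 172 in GMP (169 to 175), 189 in CMP (184 to 194) and 106 in LSK (104 to 109). MEP stood clear of all others, with log2 ratios of 1.12 over GMP (1.09 to 1.15) and 1.82 over LSK (1.79 to 1.86). Hjurp (chr1:88262471-88277633, minus strand), the chaperone that deposits the protein CENP-A, did not share that pattern. It had 77.3 CPM in MEP, 53.6 in GMP, 49.8 in CMP and 87.7 in LSK, so its highest library was LSK, although with the other scalings MEP was the higher of MEP and LSK. Ndc80, a microtubule-binding kinetochore subunit, had 23.4 CPM in MEP, 25.4 in GMP, 28.5 in CMP and 31.2 in LSK, where every pair of neighbours overlapped, and its sign between MEP and LSK turned with the other scalings. Its partner Nuf2 had 30.1 CPM in MEP, 31.3 in GMP, 28.4 in CMP and 23.5 in LSK. Cenpe, a kinetochore kinesin, had 84.2 CPM in MEP, 67.5 in GMP, 64.4 in CMP and 49.8 in LSK. Cenpf, a large kinetochore protein, had 126 CPM in MEP, 90.3 in GMP, 94.1 in CMP and 97.7 in LSK. MEP was highest for both of these genes.

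Of the 4 kinesins, Kif23 (chr9:61915905-61946774, minus strand), the kinesin of the central spindle that helps cut the cell, ran against the set. It had 15.8 CPM in MEP (15.0 to 16.7), 31.4 in GMP (30.1 to 32.7), 35.3 in CMP (33.1 to 37.6) and 49.1 in LSK (47.5 to 50.7). No intervals overlapped, and its log2 ratio was -1.63 in MEP over LSK (-1.72 to -1.54). The share of cells with a Kif23 UMI was also lower in MEP, 16.2%, than in LSK, 22.6%, although the median MEP cell had the larger number of UMIs. Kif11, which pushes spindle poles apart, had 34.2 CPM in MEP, 33.4 in GMP, 33.2 in CMP and 26.2 in LSK, with the first 3 overlapping. Kif20b, a kinesin of cytokinesis, had 74.8 CPM in MEP, 71.2 in GMP, 54.5 in CMP and 50.7 in LSK. Kif2c, which depolymerizes microtubules at centromeres, had 20.1 CPM in MEP, 23.4 in GMP, 16.1 in CMP and 15.0 in LSK. Both were lowest in LSK.

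The 12 spindle proteins held the widest spread. Tubb4b (chr2:25222160-25224702, minus strand), a beta-tubulin, had 938 CPM in MEP (932 to 945), 370.5 in GMP (366 to 375), 341 in CMP (334 to 348) and 418 in LSK (414 to 423), and its log2 ratio over the other 3 libraries lay between 1.17 and 1.46. Beta-tubulin genes are close copies of each other, so their counts are uncertain. Hmmr, a spindle protein that binds hyaluronan and microtubules, had 117 CPM in MEP, 62.2 in GMP, 60.6 in CMP and 55.3 in LSK, with MEP over LSK at 1.09 (1.03 to 1.14). Gtse1, a microtubule-binding protein, had 11.7 CPM in MEP, 6.32 in GMP, 4.31 in CMP and 4.63 in LSK. Both stood higher in MEP. The other 3 libraries were close together for Hmmr, while Gtse1 was higher in GMP than in CMP and LSK.

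Gas2l3 (chr10:89408823-89443967, minus strand), which links actin and microtubules in cytokinesis, was lowest in MEP. It had 4.65 CPM in MEP (4.19 to 5.14), 13.6 in GMP (12.8 to 14.5), 12.5 in CMP (11.2 to 13.9) and 15.7 in LSK (14.8 to 16.6), a log2 ratio of -1.75 for MEP over LSK (-1.93 to -1.58). Psrc1 (chr3:108383839-108388231, plus strand), a microtubule-stabilizing protein, was lowest in GMP, with 12.5 CPM in MEP, 7.25 in GMP, 16.0 in CMP and 18.6 in LSK and a log2 ratio of -1.14 in GMP over CMP (-1.33 to -0.96). This call was lost with median-of-ratios factors. Of the remaining spindle proteins, Tpx2, which activates aurora A, had 77.2 CPM in MEP, 68.4 in GMP, 62.2 in CMP and 55.0 in LSK. Tacc3, which stabilizes spindle fibres, had 66.1 CPM in MEP, 68.3 in GMP, 59.0 in CMP and 44.9 in LSK. Both were lowest in LSK. Nusap1, which bundles microtubules, had 58.7 CPM in MEP, 76.1 in GMP, 60.4 in CMP and 72.1 in LSK and so was higher in GMP and LSK than in MEP and CMP, but lower in LSK than in both with the other scalings. Ckap2, Ckap2l, Ckap5 and Dlgap5, all microtubule-associated, ranged from 17.1 to 42.5 CPM over the 4 libraries. Their log2 ratios of MEP over LSK ran from -0.17 for Ckap2 to 0.42 for Ckap2l.

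In cytokinesis, Anln, an actin-binding scaffold of the contractile ring, had 18.2 CPM in MEP, 12.1 in GMP, 9.77 in CMP and 7.98 in LSK and was 1.19 log2 units higher in MEP than in LSK (1.05 to 1.33). Ect2, which activates RhoA at the cell equator, had 8.99 CPM in MEP, 13.3 in GMP, 8.99 in CMP and 9.22 in LSK, so it was highest in GMP while the other 3 overlapped. With Kif23 and Gas2l3 low in MEP and Anln high there, the genes of cytokinesis did not share 1 order. Of non-members with a part in cytokinesis, Cep55, a midbody protein, had 1.72 CPM in MEP, 15.6 in GMP, 13.1 in CMP and 17.1 in LSK. Racgap1, the partner of Kif23 in the centralspindlin complex, had 34.2 CPM in MEP, 54.8 in GMP, 49.3 in CMP and 40.4 in LSK. Both were also lowest in MEP. Other non-members with a part in cytokinesis were highest in MEP. Prc1, which bundles microtubules of the central spindle, had 80.8 CPM in MEP, 70.0 in GMP, 62.3 in CMP and 67.6 in LSK. Incenp, the scaffold of the chromosomal passengers, had 71.1 CPM in MEP, 56.5 in GMP, 49.5 in CMP and 48.4 in LSK. The kinesins Kif20a and Kif14 had 22.2 and 7.19 CPM in MEP, against 16.9 and 5.16 in LSK.

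Among 8 genes of chromosome structure, Mki67 (chr7:135689784-135716361, minus strand), whose protein coats mitotic chromosomes and serves as a marker of cycling cells, had 203 CPM in MEP (200.3 to 207), 116 in GMP (113 to 118), 104 in CMP (100.5 to 108) and 98.5 in LSK (96.3 to 101). MEP stood apart, at a log2 ratio of 1.05 over LSK (1.01 to 1.09), while CMP and LSK overlapped. Top2a, the topoisomerase that untangles DNA, differed less, at 286 CPM in MEP, 245 in GMP, 258 in CMP and 223 in LSK. The condensin subunits Smc4 and Ncapd2 differed in order. Smc4 had 412 CPM in MEP, 347 in GMP, 274 in CMP and 262 in LSK. Ncapd2 had 31.7 CPM in MEP, 26.0 in GMP, 36.1 in CMP and 35.2 in LSK. Hmgb2, a DNA-bending protein with close copies in the genome, and Anp32e, a chaperone of the histone H2A.Z, were lowest in LSK. Hmgb2 had 1766 CPM in MEP, 1849 in GMP, 1660.2 in CMP and 1233 in LSK. Anp32e had 312 CPM in MEP, 290.1 in GMP, 297 in CMP and 174 in LSK. Cbx5, the heterochromatin protein HP1 alpha, and Ctcf, the insulator protein, were higher in MEP and LSK than in the 2 libraries between, but Cbx5 was lower in LSK than in GMP and CMP with the other scalings. Cbx5 had 170.5 CPM in MEP, 90.6 in GMP, 97.4 in CMP and 116 in LSK. Ctcf had 170.2 CPM in MEP, 85.4 in GMP, 105 in CMP and 156 in LSK.

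None of the 3 nuclear envelope genes passed 2-fold in any pair of libraries. Tmpo, a lamina-associated protein, had 171 CPM in MEP, 147 in GMP, 196 in CMP and 171 in LSK. Lbr, the lamin B receptor, had 53.6 CPM in MEP, 82.1 in GMP, 57.3 in CMP and 63.9 in LSK. Rangap1, the GTPase activator of Ran, had 96.0 CPM in MEP, 70.3 in GMP, 58.4 in CMP and 65.2 in LSK. Each was highest in another library, Tmpo in CMP, Lbr in GMP and Rangap1 in MEP. Of the remaining regulators, Cdca3, a trigger of mitotic entry, had 147 CPM in MEP, 126 in GMP, 106 in CMP and 60.9 in LSK, at 1.27 log2 units in MEP over LSK (1.22 to 1.32). Cdca2, which targets a phosphatase to chromatin, stayed between 25.3 and 29.6 CPM, and G2e3, a ubiquitin ligase, had 14.3 CPM in MEP, 15.5 in GMP, 10.5 in CMP and 18.5 in LSK.

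Seen cell by cell as sequenced, the median gene was detected in 49.1% of MEP, 38.0% of GMP, 26.8% of CMP and 18.9% of LSK cells. MEP cells were also the deepest. After every cell had been thinned at random to 3000 UMIs, which left out 0 MEP, 167 GMP, 242 CMP and 734 LSK cells that were shallower, the median shares were 17.0% in MEP, 16.6% in GMP, 13.7% in CMP and 10.1% in LSK. The medians thus kept their order at equal depth, but MEP and GMP were nearly level and differed by gene. Cdk1 was in 34.8% of MEP and 36.7% of GMP cells, Cks1b in 71.4% and 77.4%, and Aurkb in 16.8% and 23.1%. Other genes were in more MEP cells, such as Cenpa, in 56.4% of MEP and 31.2% of GMP cells, and Mki67, in 38.1% and 25.8%. Genes that other gates should lack were rare in them: Elane, a granule gene, was in 0.0318% of thinned MEP cells, Car1, an erythroid gene, in 0.102% of GMP cells, and Ly6a, the gene of SCA1, in 0.0637% of MEP, 0.293% of GMP and 0.375% of CMP cells. These genes are scarce in those libraries, so their shares do not measure the free RNA of genes as abundant there as the 52. In LSK, barcodes with 100 or fewer UMIs, mostly empty droplets, held the set at 86.3% of the CPM of the cells, and the part of free RNA in the shares of cells was not tested.

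The median thinned cell had 13 of the 52 genes detected in MEP, 11 in GMP, 8 in CMP and 6 in LSK. The upper ends were alike, since the cell at the 90th percentile had 19 genes in MEP, 19 in GMP, 20 in CMP and 18 in LSK, and the richest cell had 30 in MEP, 29 in GMP, 34 in CMP and 37 in LSK. The distributions thus differed in their lower and middle parts, and in CMP and LSK most cells had few of the genes beside a long tail of cells with many. Cells with 10 or more of the genes made up 75.1% of MEP (74.0 to 76.1), 60.4% of GMP (59.3 to 61.5), 42.4% of CMP (40.7 to 44.0) and 23.9% of LSK (23.1 to 24.7). Without thinning the shares were 92.9% in MEP, 90.1% in GMP, 66.9% in CMP and 43.0% in LSK. This band is a range of a count and no cell type, and 705 MEP, 1195 GMP, 397 CMP and 573 LSK cells lay next to its limit, with 9 or 10 genes. At the other end, 8 MEP, 42 GMP, 81 CMP and 967 LSK cells had at most 2 of the genes.

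**Figure D3:**
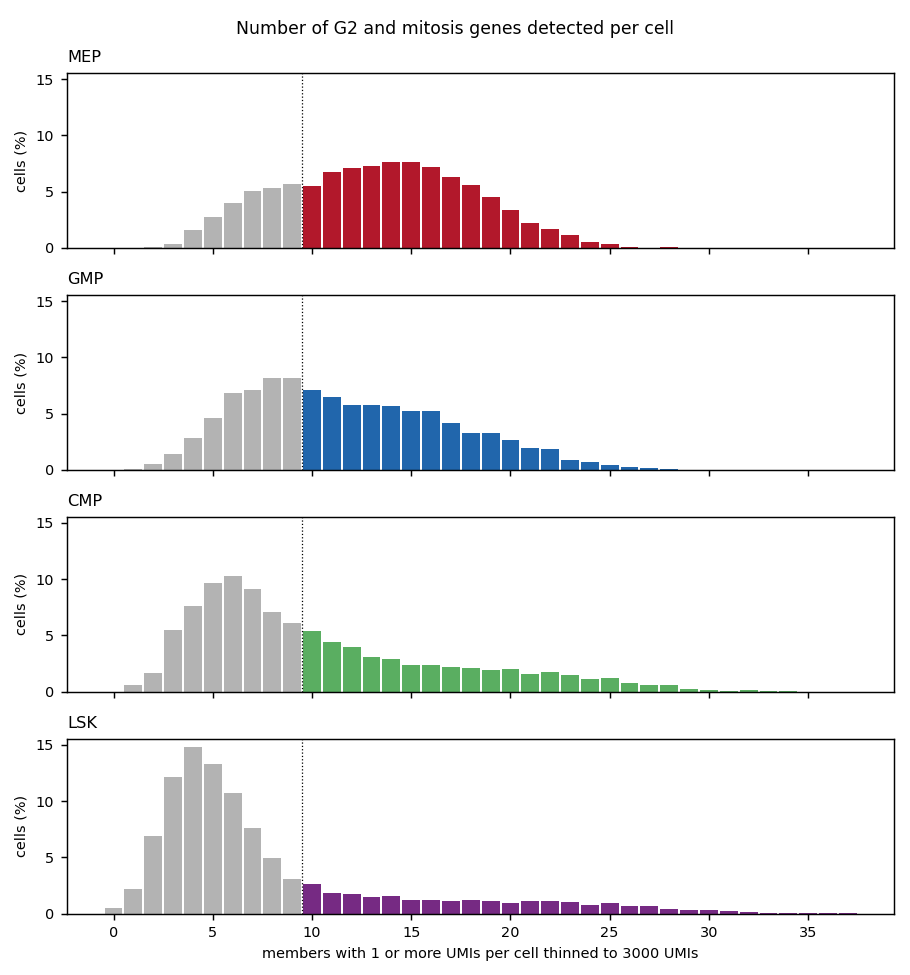
Histograms of the number of the 52 genes detected per cell in MEP, GMP, CMP and LSK, as a percentage of cells thinned to 3000 UMIs; coloured bars are cells with 10 or more genes, 75.1% in MEP, 60.4% in GMP, 42.4% in CMP and 23.9% in LSK. The right-hand tails reach 34 genes in CMP and 37 in LSK, against 30 in MEP and 29 in GMP, while the bulk of CMP and LSK cells lies further left.

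The cells with 10 or more of the genes held 87.9% in MEP, 79.2% in GMP, 72.8% in CMP and 63.9% in LSK of the UMIs of the set, after thinning. They were also larger libraries as sequenced, with medians of 14451 UMIs in MEP, 9914 in GMP, 8366 in CMP and 10150.5 in LSK, against 5582 in MEP, 7688.5 in GMP, 4982 in CMP and 5353 in LSK in cells with at most 2 of the genes. LSK cells with 10 or more of the genes had a mean of 13.3 S phase UMIs per 3000, those with 3 to 9 had 7.89 and those with at most 2 had 4.73. In MEP the same means were 12.6, 11.2 and 10.9, the last of these over 8 cells only, and in GMP 10.5, 12.7 and 10.05. In CMP they were 11.8, 11.5 and 7.17. The means fell from band to band in LSK, while in GMP the middle band had the highest. The band is set by the genes themselves, so these values describe it only.

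How far the genes gathered in the same cells was read by ranking the cells of a library by the UMIs of the other 51 genes and taking the share of a gene's UMIs in the richest 10% of cells, which would be 10% if the gene were spread evenly. The median over the 52 genes was 17.1% in MEP, 20.04% in GMP, 32.9% in CMP and 45.2% in LSK. The gathering was thus strongest in the library with the lowest levels and weakest in the one with the highest. In LSK 21 genes had over 50% of their UMIs in those cells and in CMP 3, while in MEP 43 and in GMP 26 had under 20%. In the 10% of cells richest in S phase UMIs the medians were 9.78% in MEP, 7.45% in GMP, 8.67% in CMP and 13.4% in LSK. For 50 of 52 genes in MEP, and 51 of 52 in each other library, the share was larger in the cells rich in G2 and mitosis UMIs than in the cells rich in S phase UMIs. Cells of 1 library share its depth and preparation, so these shares are descriptions. They also depend on how many cells have the genes. Their order over the libraries is therefore not separate from that of the shares of cells with 10 or more genes.

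**Figure D4:**
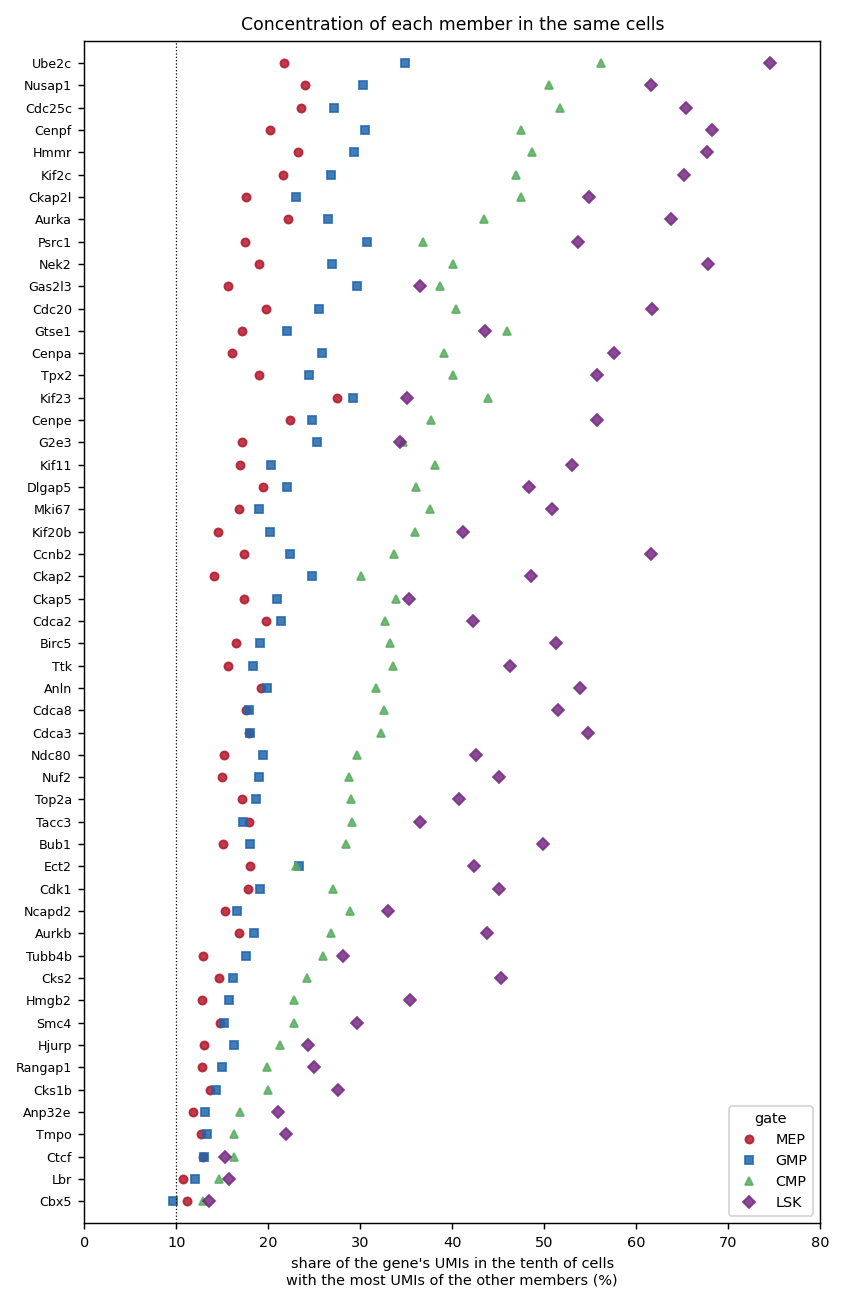
Share of each gene's UMIs found in the 10% of cells richest in UMIs of the other 51 genes, in percent, for MEP, GMP, CMP and LSK cells thinned to 3000 UMIs; the dotted line at 10% is an even spread. Ube2c tops the order, with 21.7% in MEP, 34.9% in GMP, 56.1% in CMP and 74.6% in LSK, and Cbx5 ends it, with 11.2% in MEP, 9.62% in GMP, 12.9% in CMP and 13.5% in LSK.

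The 4 genes with the highest shares in LSK were Ube2c, Cenpf, Nek2 and Hmmr. Ube2c had 21.7% in MEP, 34.9% in GMP, 56.1% in CMP and 74.6% in LSK. Cenpf had 20.2% in MEP, 30.5% in GMP, 47.5% in CMP and 68.3% in LSK. Nek2 had 19.0% in MEP, 26.9% in GMP, 40.1% in CMP and 67.8% in LSK. Hmmr had 23.2% in MEP, 29.4% in GMP, 48.6% in CMP and 67.7% in LSK. Each of them was least gathered in MEP and most in LSK. Nusap1, Cdc25c, Kif2c and Aurka had between 61.6% and 65.5% in LSK. The lowest shares in LSK were those of Cbx5, Ctcf and Lbr. Cbx5 was nearly even, at 11.2% in MEP, 9.62% in GMP, 12.9% in CMP and 13.5% in LSK. Lbr had 10.8% in MEP, 11.98% in GMP, 14.7% in CMP and 15.7% in LSK. Ctcf had 12.9% in MEP, 13.05% in GMP, 16.3% in CMP and 15.3% in LSK. Even in LSK these 3 genes lay near the 10% of an even spread, and Tmpo and Anp32e were at 21.9% and 21.1% there. Kif23 was not scattered in MEP despite its low level, since its 27.5% was the highest value of any of the 52 genes in that library, and in LSK it had 35.02%. Of genes with a promoter window, CHR letters were in 73.9% of the 23 with the higher shares and in 82.6% of the other 23, so the letters were not more common at the upper end.

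Within LSK, cells with stem cell transcripts had fewer transcripts of G2 and mitosis. The 5910 thinned cells with 2 or more UMIs of the 6 stem markers (Hlf, Mecom, Procr, Mllt3, Meis1 and Ly6a) had a summed level of 4707 CPM, against 6720 CPM in the 1954 cells with no stem marker UMI, a log2 ratio of -0.51 (-0.52 to -0.50). Cells with 10 or more of the 52 genes made up 17.2% of the stem marker cells (16.3 to 18.2) and 37.2% of the cells with none (35.1 to 39.4). The stem marker cells were shallower as sequenced, at a median of 5595 UMIs against 7926.5, and the ratio was -0.33 where cells were thinned to 5000 UMIs, which leaves out the shallow ones. LSK cells with UMIs of the 4 MHC class II markers (the dendritic list) also had a lower share with 10 or more genes, 16.6% against 29.1%, whereas those with granule markers had 51.4% against 28.6%, those with monocyte markers 39.8% against 23.4%, and those with basophil markers 41.8% against 23.0%.

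**Figure D5:**
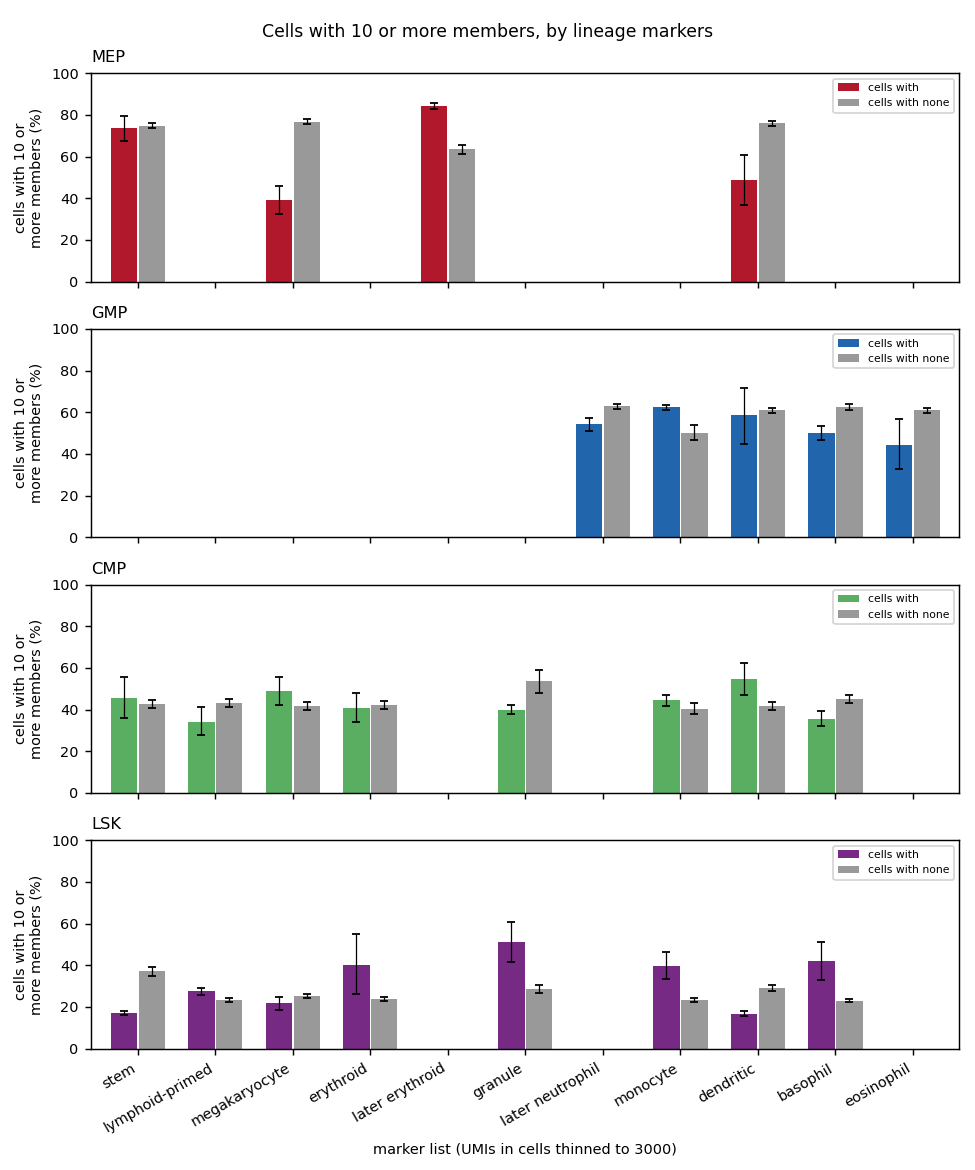
Share of cells with 10 or more of the 52 genes, in percent with exact 95% intervals, in cells with UMIs of a marker list (left bar of each pair) and in cells with none (right bar), by library. The stem marker pair in LSK shows 17.2% against 37.2%, and the megakaryocyte marker pair in MEP shows 39.0% against 76.7%.

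In MEP, the 205 cells with 2 or more UMIs of the 5 megakaryocyte markers had a lower share of cells with 10 or more genes than the cells with none, as 2 other marker classes had. They had 39.0% of cells with 10 or more genes (32.3 to 46.1), against 76.7% (75.6 to 77.8) of the 5822 cells with none, and 6574 against 9036 CPM. Their median was 5118 UMIs as sequenced, against 12964 in the others, and the part of depth in the result was not tested beyond the thinning of all cells to 3000 UMIs. MEP cells with later erythroid markers (Sphk1, Cldn13 and Tspo2) had 84.2% against 63.4%, at medians of 14775 and 9711 UMIs. The 363 MEP cells with UMIs of the T and NK cell markers had 40.8% against 79.8%, at medians of 5220 and 13637.5 UMIs, and the 74 with dendritic markers 48.6% against 76.0%. A lower share was thus not particular to the megakaryocyte class. Over the MEP library the 3 later erythroid markers summed to 560.0 CPM, with none at 0. The T and NK cell markers summed to 44.3 CPM there, with 1 of 3 at 0. In the other libraries the T and NK cell markers summed to more, 1205 CPM in GMP, 423 in CMP and 289 in LSK. Whether cells with these markers were T or NK cells was not tested.

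In GMP the share of cells with 10 or more genes was lower with some lineage markers and higher with monocyte markers. Cells with later neutrophil markers (Cebpe, Ngp, Camp, Ltf and Fcnb) had 54.2% (51.1 to 57.3) with 10 or more genes, against 62.9% (61.5 to 64.2) without. The share was 62.4% against 50.2% for monocyte markers, 50.2% against 62.5% for basophil markers and 44.4% against 60.9% for eosinophil markers. In each of these pairs the cells with the lower share were also the shallower ones. Medians were 9417 against 7833, 7563 against 9354 and 7125.5 against 9224 UMIs in the same order, and 8497.5 against 9370 for later neutrophil markers. In CMP the 2013 cells with 10 or more granule marker UMIs had a summed level of 6265 CPM, against 10312 CPM in the 353 cells with none, a log2 ratio of -0.72 (-0.74 to -0.70), and 40.0% against 53.5% of cells in the band. The CMP cells with granule markers were the deeper ones, at a median of 8320 against 5163 UMIs. Basophil, lymphoid-primed and T and NK marker cells also had lower shares in the band, 35.7% against 45.0%, 34.3% against 43.2% and 37.6% against 46.4%. These cells were the shallower ones, at medians of 5996 against 7656.5, 6591 against 7175.5 and 6041 against 8030 UMIs. LSK cells with T and NK markers went the other way, with 30.3% against 20.1%, at medians of 7139 and 5789 UMIs. CMP cells with erythroid markers had 9317 against 6854 CPM, while their shares of cells with 10 or more genes, 40.8% and 42.2%, overlapped. The lower values of stem marker cells in LSK, megakaryocyte marker cells in MEP and dendritic marker cells in both were not seen in CMP. There the summed levels were 8815 against 6907, 8820 against 6813 and 10375 against 6917 CPM. The shares with 10 or more genes were 45.8% against 42.6%, 49.1% against 41.8% and 54.8% against 41.8%, overlapping for stem and megakaryocyte markers.

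The other genes of mitosis, 64 genes that are not among the 52, did not all move with them. Plk1, the polo kinase of mitosis, had 68.5 CPM in MEP, 41.1 in GMP, 26.0 in CMP and 26.4 in LSK. Ccnb1, the main B-type cyclin, had 115 CPM in MEP, 96.2 in GMP, 62.0 in CMP and 47.0 in LSK. Ccna2, the A-type cyclin of S and G2, had 108 CPM in MEP, 69.7 in GMP, 51.97 in CMP and 45.2 in LSK. All 3 were 2-fold or more higher in MEP than in LSK. Fam64a, a regulator of the metaphase to anaphase step, had 2.33 CPM in MEP, 23.3 in GMP, 30.3 in CMP and 36.0 in LSK, lowest in MEP as Kif23, Gas2l3 and Cep55 were. Of the 56 other mitosis genes past the minimum in MEP over LSK, 8 were higher and 3 lower, and of the 42 S phase genes 5 were higher and 0 lower. Of all genes 9.16% were higher and 24.9% lower. The 64 genes summed to 5017 CPM in MEP, 5003 in GMP, 5729.7 in CMP and 4831 in LSK, highest in CMP. A single gene carried this, Stmn1, a tubulin-binding protein, with 1441 CPM in MEP, 1736 in GMP, 2722 in CMP and 2090.0 in LSK. Without it the other 63 genes summed to 3575 CPM in MEP, 3268 in GMP, 3008 in CMP and 2741 in LSK, the same order as the sum of the 52 genes.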

How the data were processed

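The values are raw UMI counts for each gene and barcode, as deposited by the authors, with no normalization. Per the labels' protocols, cells went through a droplet 3' assay and the reads came from a HiSeq. Per the submitters' processing notes, the tools named are Seurat 2.3.0, CASAVA 1.8.2 and Cell Ranger 2.0.0, and the genome is mm10. No source used here gives the filters on cells.

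Groups were the sort gates of the labels. The LSK matrix held 737280 barcodes, of which the 10883 with 2110 or more UMIs were taken as cells. A cell was kept if it had at least 500 genes and no more than 10% of its UMIs from mitochondrial genes. Counts were summed per library and divided by its total (CPM). Sums carry exact Poisson intervals, ratios exact conditional binomial intervals and shares exact Clopper-Pearson intervals. A count under 3 was set to 3 in ratios. A library total of 26919088 to 80273121 UMIs puts 3 counts at 0.111 to 0.0374 CPM. PCR duplicates were collapsed by UMI, and the intervals do not cover variation between animals or sorts. Doublets stayed in and were removed in an alternative (the highest scores, 0.8% per 1000 cells). Thinning drew 3000 UMIs per cell without replacement, with a fixed seed of 0. Symbols and IDs were used as in the matrices, and coordinates are from GENCODE on GRCm38. Counting can split reads of near-identical genes.

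Marker classes were cells with 2 or more UMIs (10 or more for granule markers) per 3000 against cells with none, shown where both held at least 50 cells. All 52 members were named, with other mitosis and S phase genes by a rule on level and ratio, and Elane, Car1 and Ly6a as genes that other gates should lack; Racgap1, Prc1, Incenp, Kif20a and Kif14 fall outside that rule and were added with their values known. The members, lists and markers were chosen with earlier results of these data known. On simulated counts for each of the 6 comparisons, with 27998 genes and only counting noise, 200 of 200 changed genes and 0 others were called, and intervals covered 95.2 to 95.7%. The planted changes lay well above 2-fold, in genes at 50 CPM or more. The check thus covers the arithmetic, and not calls near 2-fold, at low CPM or between animals. Alternatives were 2 other scalings, other CPM minimums, mitochondrial, doublet and thinning limits, equal weight per cell and other band limits. Python 3.11.15, numpy 2.4.6, scipy 1.17.1, pandas 2.3.3, scikit-learn 1.9.0, matplotlib 3.10.9 and edgeR 4.0.16 (TMM factors only) were used.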

Additional observations from a re-analysis of the deposited data

Results flagged for a closer look

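LSK barcodes that were not taken as cells held transcripts of the set at nearly the level of the cells. The 426182 barcodes with 100 or fewer UMIs, which are mostly empty droplets, had a summed level of 4659 CPM (4537 to 4784) over 1179757 UMIs, or 86.3% of the 5399 CPM of the LSK cells. All 508787 barcodes with a UMI below the minimum for cells had 5619 CPM (5588 to 5650), or 104% of the level of the cells. All 52 genes had a UMI in both pools. At 100 or fewer UMIs a barcode held 2.77 UMIs and 0.0129 UMIs of the set on average. These barcodes were used in no comparison, and no other matrix held barcodes of this kind, so the other libraries have no such value.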

How the results depend on the processing

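No paired analysis was possible because each gate is 1 library and the labels carry no replicate numbers, and no replicate could be left out. Of 115 alternative values 63 moved little, 52 moved more and 0 changed sign. Only the medians and the stem marker ratio could change sign, since counts and shares cannot. Single genes did change sign with median-of-ratios factors, 17 in CMP over LSK, 10 in MEP over LSK and 11 in GMP over LSK. Removing likely doublets or setting a 5% mitochondrial limit moved all values little: 6 genes passed in GMP over LSK under each (main 7), without Aurkb, and 6 in MEP over CMP without doublets (main 5), with Cenpa added. Without doublets 4.99% of all genes were higher and 20.9% lower in GMP over LSK, and 10.9% and 14.6% in MEP over CMP. With the 5% limit the shares of all genes in GMP over LSK were 5.09% and 20.9%.

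With median-of-ratios factors the genes past 2-fold numbered 9 in MEP over CMP (main 5), 0 in GMP over CMP (1), 7 in CMP over LSK (2), 30 in MEP over LSK (12) and 19 in GMP over LSK (7). The medians were 0.46, 0.30, 0.48, 1.05 and 0.87 in the same order. The shares of all genes with these factors are given with the comparisons above. With TMM factors the counts were 9 in MEP over CMP and 7 in CMP over LSK. Of all genes 13.6% were higher and 13.2% lower in MEP over CMP, and 4.9% and 6.19% in CMP over LSK. With these factors 23 genes passed in MEP over LSK, where 21.7% of all genes were higher and 16.9% lower. In GMP over LSK 16 passed, where 13.05% of all genes were higher and 11.2% lower. The TMM medians were 0.27 in GMP over CMP, 0.42 in CMP over LSK, 0.97 in MEP over LSK and 0.78 in GMP over LSK. By construction a scaling shifts every gene alike. With equal weight per cell the counts were 5 in CMP over LSK and 11 in GMP over LSK. Of all genes 2.38% were higher and 12.4% lower in CMP over LSK, and 5.70% and 22.6% in GMP over LSK. The medians with equal weight were 0.36 in CMP over LSK, 0.75 in MEP over LSK and 0.62 in GMP over LSK. At a minimum of 50 CPM, which leaves fewer genes, 1 gene was higher and 0 lower in MEP over CMP. Of all genes 10.5% were higher and 11.3% lower there. In GMP over CMP 0 passed, where 2.92% of all genes were higher and 4.03% lower.

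The share of cells with 10 or more genes in MEP, GMP, CMP and LSK was 56.0, 41.0, 28.6 and 16.6% at 2000 UMIs and 93.0, 83.6, 68.6 and 43.3% at 5000 UMIs. With 8 or more genes it was 86.0, 76.7, 55.5 and 31.9%, and with 12 or more 62.8, 46.9, 32.6 and 19.5%. Without the 7 genes detected in the most cells, an alternative chosen after seeing the data as were those for MEP over LSK and GMP over LSK, it was 37.7, 28.9, 22.1 and 14.6%. The order of the libraries held throughout. In the richest 20% of cells the concentration medians were 32.3, 36.5, 52.7 and 68.1%, and at 5000 UMIs the LSK median was 40.9%. The stem marker log2 ratio in LSK was -0.68 with 3 or more marker UMIs and -0.33 at 5000 UMIs. Low levels such as those of Gtse1 and Ect2 and the single library per gate limit the depth of these statements.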
